A study of Mus musculus with 2 samples.

Results

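Neuronal nicotinic acetylcholine receptor subunits were examined in RNA on the ribosomes of Drd2-expressing cells of the mouse medial prefrontal cortex. The members were the genes Chrna2, Chrna3, Chrna4, Chrna5, Chrna6, Chrna7, Chrnb2, Chrnb3 and Chrnb4, each taken from probe sets whose platform annotation names that gene alone. All 9 had such a probe set, 1 apiece, among 22180 named genes on the arrays. The single group comprised 2 arrays, labelled technical replicates of a pool of 5 adult D2Cre::RiboTag mice and taken to share that pool. D2Cre directs Cre recombinase to cells that use the regulatory sequence of the dopamine D2 receptor gene, and RiboTag lets such cells carry a haemagglutinin-tagged ribosomal protein, so that their ribosomes can be pulled down with an antibody to the tag. The labels call the cells Drd2+ neurons. Neither input RNA nor a mock pull-down nor another condition was analysed here, so the arrays show which subunit messengers gave signal in the precipitated RNA and not whether the captured cells held more of them than the cortex around.

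Nicotinic receptors are pentameric cation channels that open when acetylcholine, or nicotine, binds at the interface between an alpha subunit and its neighbour. Receptors of alpha4 with beta2 have high affinity for nicotine and, together with receptors built of alpha7 alone, are the most widespread forms in the cortex. The other neuronal subunits have narrower known sites: alpha5 joins alpha4 and beta2 in deep cortical pyramidal cells, alpha2 is used by somatostatin interneurons of the deep layers, alpha6 and beta3 are typical of midbrain dopamine neurons, and alpha3 with beta4 is typical of autonomic ganglia and the medial habenula.

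Signals are on a log2 scale, judged from the range of the values, and an error is the SD over the 2 technical arrays. This spread is technical and says nothing about differences between animals, so no p-value is given. With no control sample, 1394 genes of olfactory and vomeronasal receptors, which the cortex is not known to use, set the background. Their 95th percentile was 5.61 on replicate 1 and 5.66 on replicate 2, and a gene counts as above background where it passed this value on each array. Stricter thresholds were the 99th percentile of the same genes, at 6.64 on both arrays, and the 95th percentile of 32 genes typical of liver, testis or skeletal muscle, called here the out-of-tissue threshold, at 7.26 and 7.06. The arrays repeated each other with a Pearson's r of 0.994 over probe sets, which are not independent replicates. Drd2, the gene whose regulatory sequence directs Cre in these mice, stood at 10.78 and 10.70. All 8 pan-neuronal markers, all 5 measured glutamatergic markers and all 5 measured GABAergic markers exceeded the out-of-tissue threshold, against 38.2% of named genes. Among them were Snap25 at 13.69 and 13.70, Syt1 at 13.23 and 13.18 and Rbfox3 at 11.58 and 11.65 in neurons at large, and Slc17a7 at 12.28 and 12.32, Camk2a at 12.41 and 12.38 and Neurod2 at 10.75 and 10.86 in glutamatergic cells. In GABAergic cells they were Gad1 at 8.78 and 8.91, Gad2 at 11.50 and 11.49, and Slc32a1 at 9.05 and 8.91, the mean of probe sets that averaged 10.79 and 7.17.

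The nicotinic subunits fell into 3 sets by these thresholds. Chrna4, Chrna7 and Chrnb2 exceeded all of them, Chrna2, Chrna3 and Chrna5 exceeded background but not the out-of-tissue threshold, and Chrna6, Chrnb3 and Chrnb4 were not above background. In all, 6 of the 9 members (66.7%) were above background, against 60.3% of all named genes and 64.1% of those that are not sensory receptor genes. At the 99th percentile 4 members (44.4%) passed, against 45.0% of named genes, and at the out-of-tissue threshold 3 (33.3%) passed, against 38.2%. As a family the subunits were thus called at about the rate of genes in general. The median member signal was 5.87, and the median of all named genes was 6.36. Probe sets differ in how strongly they bind, so each subunit is described against the thresholds and not ranked against another subunit.

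**Figure D1:**
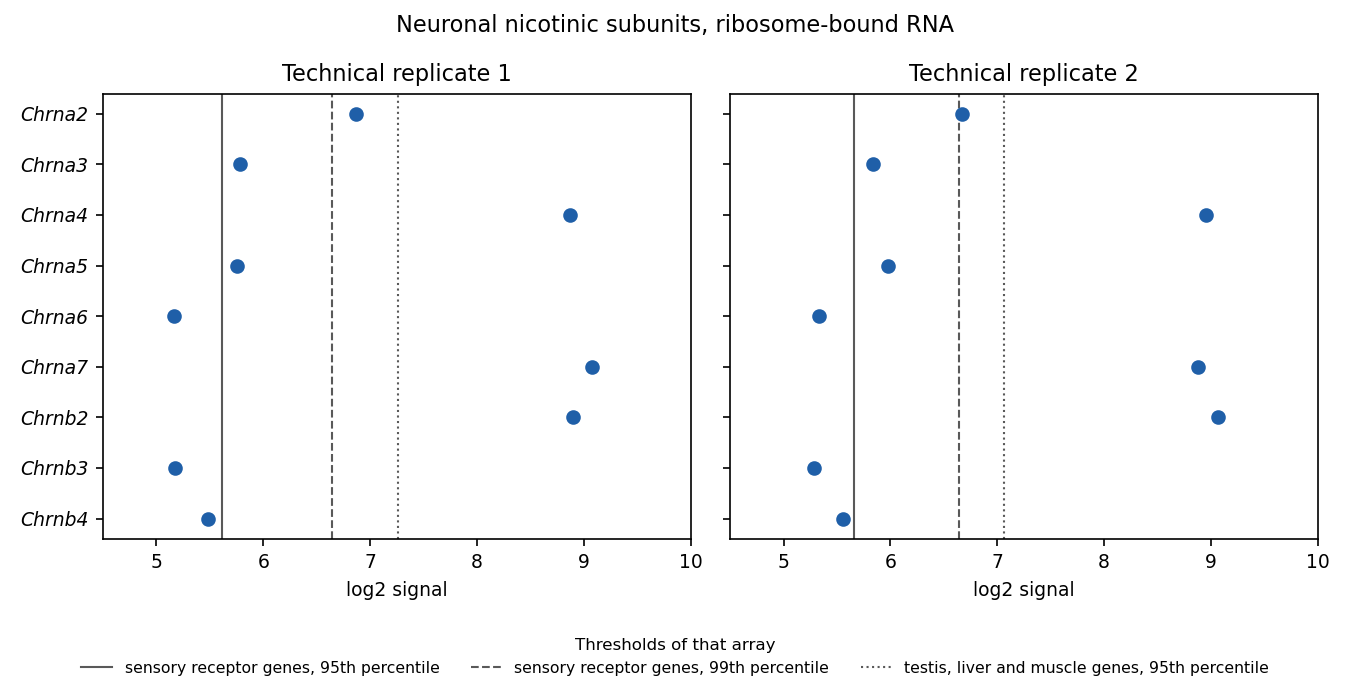
Log2 signal (horizontal axis) of the 9 neuronal nicotinic subunit genes (rows) on technical replicate 1 (left) and technical replicate 2 (right), with lines at the 3 thresholds of that array. Chrna4, Chrna7 and Chrnb2 lie right of every line on both arrays, between 8.87 and 9.08, whereas Chrna6, Chrnb3 and Chrnb4 lie left of the solid line on both.

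The upstream sequences of the 3 genes that passed every threshold are shown because they are the subunit genes for which the arrays gave clear signal. Each is the stretch of 250 bases before the annotated start, from RefSeq on the build GRCm38.p6, written 5′ to 3′ on the gene's strand. Capitals mark the GC box GGGCGG on either strand. Chrna4 is on the minus strand at chr2:181039178-181039427, Chrna7 on the minus strand at chr7:63212527-63212776 and Chrnb2 on the minus strand at chr3:89764633-89764882.
Chrna4: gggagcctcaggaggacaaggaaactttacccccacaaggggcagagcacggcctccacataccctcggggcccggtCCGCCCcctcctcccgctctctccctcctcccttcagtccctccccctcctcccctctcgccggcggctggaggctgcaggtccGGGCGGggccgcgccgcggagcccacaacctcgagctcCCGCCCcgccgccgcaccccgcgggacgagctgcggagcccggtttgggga
Chrna7: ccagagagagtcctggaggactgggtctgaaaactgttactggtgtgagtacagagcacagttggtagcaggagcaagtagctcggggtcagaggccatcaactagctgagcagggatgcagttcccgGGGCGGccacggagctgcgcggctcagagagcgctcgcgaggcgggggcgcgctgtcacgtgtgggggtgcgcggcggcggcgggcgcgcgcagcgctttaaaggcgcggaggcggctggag
Chrnb2: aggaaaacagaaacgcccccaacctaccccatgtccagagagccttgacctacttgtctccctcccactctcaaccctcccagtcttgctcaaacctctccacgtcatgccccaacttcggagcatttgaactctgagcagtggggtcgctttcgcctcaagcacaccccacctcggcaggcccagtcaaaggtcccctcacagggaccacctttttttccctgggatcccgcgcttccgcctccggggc

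These 3 windows differ from each other in base composition. The Chrna4 window is 74.4% G or C, holds 24 CpG dinucleotides and has 3 GC boxes. The Chrna7 window is 67.2% G or C, holds 25 CpG dinucleotides and has 1 GC box, and it also has 1 copy of the E box CACGTG. The Chrnb2 window is 59.6% G or C, holds 10 CpG dinucleotides and has no GC box. Over all 32851 RefSeq windows of this length, the median is 52.4% G or C with 6 CpG dinucleotides, and 32.7% hold a GC box, 6.02% the E box and 12.4% the TATA box TATAAA, each searched on both strands. In RefSeq, 6 of the 9 members had a window in this table, 7 windows in all, of which 4 held a GC box and 0 the TATA box. Among members called only at the permissive threshold, Chrna3 has 1 GC box in a window of 63.2% G or C, and Chrna5 has windows for separate starts, 1 with 4 GC boxes at 65.2% G or C and 1 with none at 40.0%. The Chrnb4 window, of a gene not above background, is 61.2% G or C with no GC box. These letters are a description of the windows, and no measurement of these arrays bears on what binds there.

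Subunits of the most widespread cortical receptors gave clear signal. Chrna4, which encodes the alpha4 subunit that carries the acetylcholine-binding face of the high-affinity receptor, had 8.87 on replicate 1 and 8.95 on replicate 2. It lay 3.26 and 3.29 log2 units over the background thresholds and 1.61 and 1.89 units over the out-of-tissue thresholds. Its usual partner Chrnb2, which encodes the beta2 subunit, had 8.90 and 9.07, or 3.29 and 3.41 units over background and 1.64 and 2.01 units over the out-of-tissue thresholds. Both genes were thus far from every threshold on each array.

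Chrna7 encodes a subunit that can form a channel by itself, is highly permeable to calcium and binds alpha-bungarotoxin. It had 9.08 on replicate 1 and 8.88 on replicate 2, with a mean of 8.98 ± 0.14. Its margin was 3.47 and 3.22 units over background and 1.82 units over the out-of-tissue threshold on each array.

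Chrna2 was the member that the choice of stricter threshold separated. It encodes alpha2, known in mouse cortex from Martinotti cells, which are somatostatin interneurons. Its signals of 6.87 and 6.67 lay 1.26 and 1.01 units over background. They exceeded the 99th percentile by 0.23 units on replicate 1 and by only 0.03 on replicate 2, and lay under the out-of-tissue threshold on both arrays. Of the genes that set that threshold, only Odf1 and Acta1 exceeded it on both arrays. Odf1 is a testis gene with a probe set at 4.98 on both arrays and another at 9.94 and 10.09. Acta1, a skeletal muscle gene, was at 7.89 and 8.08. Leaving out any gene over the threshold lowers it, so the change is not particular to Odf1. Without Odf1 the threshold was 6.83 and 6.60, which 43.5% of named genes exceeded, and Chrna2 passed it by 0.04 and 0.08 units.

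Chrna5 and Chrna3 lay just over background. Chrna5, whose product is an accessory subunit that does not form receptors without other alpha and beta subunits, had 5.75 and 5.98, only 0.14 and 0.32 units over the thresholds. Chrna3, the ganglionic alpha3 subunit, had 5.78 and 5.84, 0.17 and 0.18 units over them. Neither passed the 99th percentile, and neither exceeded on both arrays the median of all probe sets, at 5.80 and 5.81, which 57.5% of named genes exceeded. Of the sensory receptor genes that set the background, 4.09% were above it themselves.

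The remaining subunits gave no signal above background. Chrnb4, the partner of alpha3 in ganglionic receptors, had 5.48 and 5.56 and lay 0.13 and 0.10 units under the thresholds. Chrna6 had 5.16 and 5.33, and Chrnb3 had 5.17 and 5.28. Both encode subunits typical of dopamine neurons, and both lay between 0.33 and 0.45 units under the thresholds. A probe set that is not above background does not show that the messenger is absent. In RNA of a cell population, fewer cells with a messenger and less of it per cell cannot be told apart.

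The arrays repeated each member to within 0.23 log2 units. Replicate 2 was higher for 7 members and lower for 2, and over all named genes the difference between arrays had a median of -0.01 and an SD of 0.218. Spread falls with signal, so each member was set beside named genes whose mean signal lay within 0.5 units of its own. Chrna7 differed by -0.20 (replicate 2 minus replicate 1), and 9.34% of 2365 such genes differed by at least as much. For Chrnb2, at 0.17, this share was 16.7%, and for Chrna4, at 0.08, it was 57.0%. For Chrna5, which had the largest difference at 0.23, it was 28.7% of 3877 genes, and for Chrna2, at -0.20, it was 25.3% of 2907. For Chrna3, Chrna6, Chrnb3 and Chrnb4 it was between 49.5% and 79.0%. No member thus stood apart from genes of like signal in how well it repeated.

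**Figure D2:**
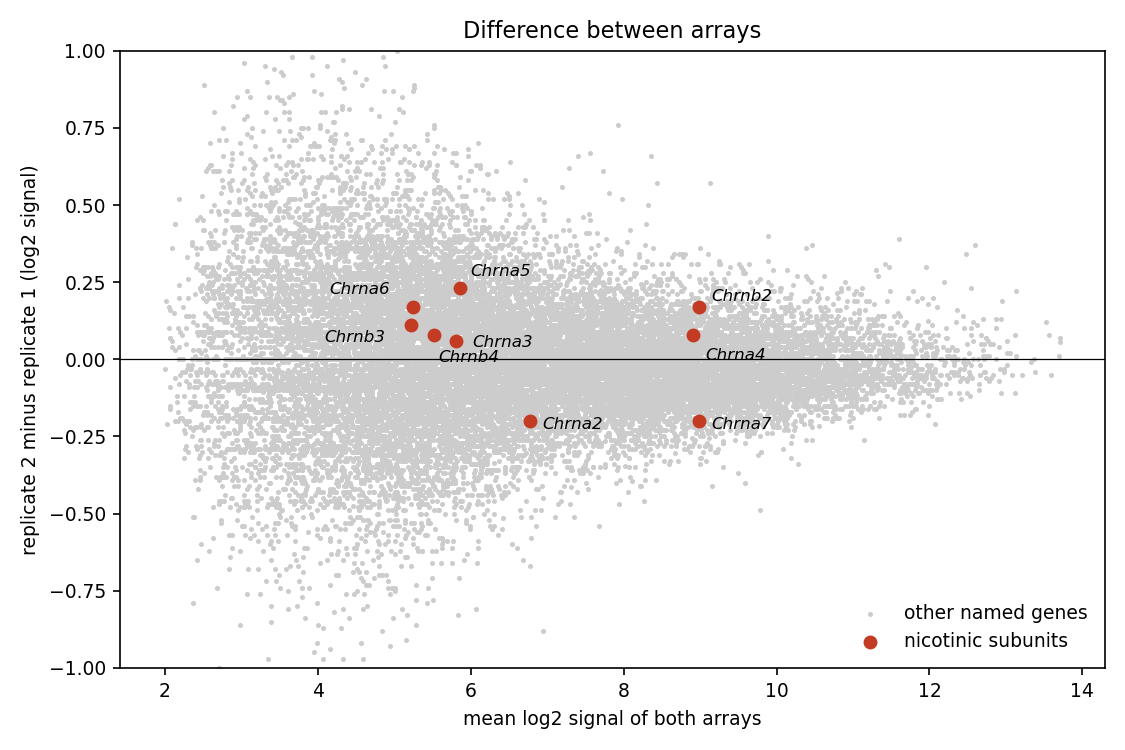
Difference between the arrays (vertical axis, replicate 2 minus replicate 1, log2 signal) against the mean log2 signal of both arrays (horizontal axis). Grey points are named genes and red points the 9 nicotinic subunits, which all lie within 0.23 units of the zero line, while 38 named genes fall outside the plotted range.

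Several subunit genes lie next to each other in the genome. In RefSeq, Chrna5, Chrna3 and Chrnb4 are consecutive protein-coding genes on chromosome 9, and Chrnb3 and Chrna6 are consecutive on chromosome 8. The annotated spans of Chrna5 and Chrna3 overlap and the genes run in opposite directions. Where their probe sets lie, and so whether either reads the shared stretch, is not given in the sources used here. None of these 5 neighbouring genes exceeded the 99th percentile, whereas the 4 members elsewhere, on chromosomes 2, 3, 7 and 14, all did. This arrangement was noticed after the values were seen, and 45.0% of named genes exceeded that percentile.

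Genes beside the clusters showed both outcomes. Ube2q2, a ubiquitin-conjugating enzyme gene next to Chrnb4, was at 9.27 and 8.99. Poteg, next to Chrna6, was not above background at 4.40 and 4.64, nor was Tex24, next to Chrnb3, at 4.58 and 5.07. Of the 12 flanking genes that are not nicotinic, 9 were analysed here and 7 of these were above background, against 60.3% of all named genes. Of the same 9, 5 passed the out-of-tissue threshold, against 38.2% of named genes. So few genes do not set the neighbours apart from genes in general. Beside the other members, Ptk2b, a calcium-activated tyrosine kinase gene next to Chrna2, was at 12.17 on both arrays, and Ephx2, an epoxide hydrolase gene on its other side, at 6.57 and 6.66. Otud7a, next to Chrna7, was at 10.19 and 10.16. Beside Chrnb2, the RNA-editing enzyme gene Adar, whose annotated span overlaps that of Chrnb2, was at 10.57 and 10.48, and Ube2q1 at 11.20 and 11.23. As with Chrna5 and Chrna3, the sources used here do not tell whether the Chrnb2 probe set reads the stretch shared with Adar. Col20a1, a collagen gene next to Chrna4, was at 5.85 and 5.73, just over background.

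Subunits of nicotinic receptors outside the brain offered a comparison within the gene family, since they are known mainly from muscle and the inner ear. Of the 7 muscle and cochlear subunit genes, 1 (14.3%) was above background, against 60.3% of all named genes. At the 99th percentile 0 passed, against 45.0% of named genes. The muscle genes Chrna1, Chrnb1, Chrnd and Chrne had means of 5.30 ± 0.07, 4.53 ± 0.09, 4.97 ± 0.13 and 5.29 ± 0.03. The cochlear genes Chrna9 and Chrna10 had means of 5.31 ± 0.01 and 4.99 ± 0.09. The exception was Chrng, the gamma subunit of fetal muscle receptors, at 5.85 and 6.01. It passed background by a similar margin as Chrna5 and Chrna3.

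Chaperones and partners known to act on nicotinic receptors were above every threshold. All 8 genes of this list passed, with a median of 9.56, whereas 38.2% of named genes passed the out-of-tissue threshold, the highest used. Ric3, a chaperone of alpha7 receptors, was at 8.78 and 8.64. Tmem35a, which encodes the endoplasmic reticulum chaperone NACHO, was at 9.57 and 9.65. Both promote assembly of alpha7 receptors in transfected cells. Vsnl1, a calcium sensor that binds alpha4, was at 13.61 and 13.56, and Ywhah, a 14-3-3 protein gene whose product also binds alpha4, averaged 8.68 ± 0.09 over probe sets at 8.49 and 8.86. Ubxn2a, Rer1 and Canx, which act in assembly, retention and folding in the secretory pathway, had means of 9.52 ± 0.01, 9.92 ± 0.04 and 12.09 ± 0.06. Pick1, a PDZ-domain protein that binds alpha7, had 8.08 and 7.84. Several of these proteins, among them calnexin (Canx) and the 14-3-3 protein, serve many other clients, so their signal is not particular to nicotinic receptors.

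Genes of small Ly6-fold proteins that bind nicotinic receptors at the cell surface were read next. Of 8 measured genes, 6 (75%) passed background, against 60.3% of all named genes. The out-of-tissue threshold was passed by 5 (62.5%), against 38.2% of named genes. Lynx1, which encodes a membrane-anchored brake on nicotinic receptors, had 11.97 and 12.04. Lypd6 had 9.74 and 9.81, Lypd6b 7.57 and 7.31 and Ly6h, which limits alpha7 at the surface, 7.73 on both arrays. Ly6e was at 11.95 and 11.96, and Ly6g6e, at 6.77 and 6.71, passed the 99th percentile but not the out-of-tissue threshold. Psca, at 4.21 and 4.11, and Slurp1, which encodes a secreted protein known from skin, at 5.45 and 5.12, were not above background.

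Genes that make, move and break down acetylcholine were above background in 4 of 6 measured cases (66.7%), against 60.3% of all named genes. At the 99th percentile 1 of them (16.7%) passed, against 45.0% of named genes. Ache, which encodes acetylcholinesterase, was at 7.88 and 8.10 and was the only 1 of these genes over the 99th percentile. Its membrane anchor Prima1, at 6.14 and 6.10, and the related esterase Bche, at 6.06 and 6.29, were above background only. Chat, the synthesising enzyme, was above background at 6.02 ± 0.02. The vesicular transporter Slc18a3, at 5.81 and 5.65, exceeded the threshold on replicate 1 only, and the choline transporter Slc5a7, at 4.94 and 4.91, on neither. Of the serotonin-gated channels, which belong to the same Cys-loop family, Htr3a was at 8.17 and 8.31 and Htr3b, not above background, at 5.19 and 5.27.

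**Figure D3:**
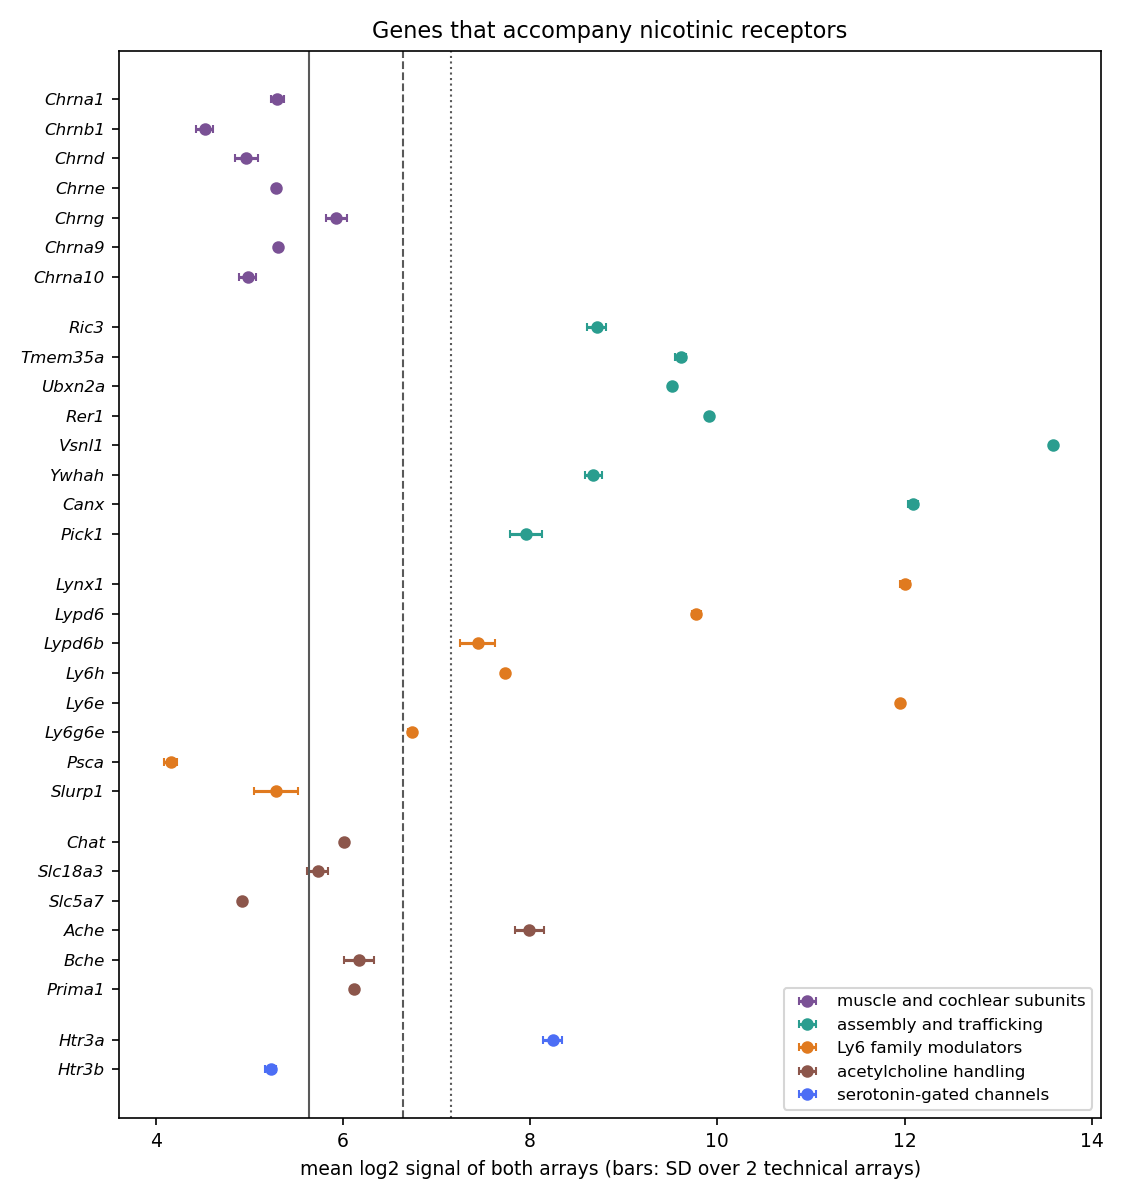
Mean log2 signal of both arrays (horizontal axis) for genes that accompany or resemble neuronal nicotinic receptors (rows, coloured by list), with bars for the SD over the 2 technical arrays. Vertical lines are the 95th (solid) and 99th (dashed) percentiles of sensory receptor genes and the out-of-tissue threshold (dotted), each averaged over the arrays. All 8 assembly and trafficking genes lie right of the dotted line, and of the 7 muscle and cochlear subunits only Chrng lies right of the solid line.

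Markers of the cells in which each subunit is known to be used were read in the same RNA. Layer 6 markers, for the deep pyramidal cells that use Chrna5, were above background in 8 of 8 cases. Among them were Ntsr1 at 8.92 ± 0.12, Tle4 at 9.11 ± 0.01 and Foxp2 at 7.05 ± 0.13. The out-of-tissue threshold was passed by 6 of 8, all but Foxp2 and Ccn2. The Ccn2 mean of 6.48 ± 0.11 averaged probe sets at 8.02 and 4.94. Chrna5 itself, as given above, was near background. The list of layer 5 and Martinotti interneuron markers passed background in 6 of 6 measured cases and the out-of-tissue threshold in 5. It holds the layer 5 pyramidal cell markers Fezf2, at 8.72 ± 0.04, and Etv1, whose mean of 8.36 ± 0.05 averaged probe sets at 7.12 and 9.60, as well as Bcl11b, at 9.42 ± 0.05. For Martinotti cells, which use Chrna2, it holds Sst, a marker of somatostatin interneurons in general, at 13.67 and 13.74, and the calretinin gene Calb2, found in some of them, at 6.57 and 6.52. Calb2 was the member under the 99th percentile and the out-of-tissue threshold. Markers of layer 1 and Htr3a-class interneurons, cells with known nicotinic responses, passed every threshold in 8 of 8 cases, including Vip at 9.53 ± 0.04 and Ndnf at 10.33 ± 0.04. Among all named genes, 60.3% were above background and 38.2% passed the out-of-tissue threshold.

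Markers of midbrain dopamine, medial habenula and cholinergic neurons were mixed. Of 10 midbrain dopamine neuron markers, for cells that use Chrna6 and Chrnb3, 6 (60%) were above background, against 60.3% of all named genes. The out-of-tissue threshold was passed by 2 (20%), against 38.2% of named genes. These were Aldh1a1, at 7.77 ± 0.09, and Nr4a2, at 9.43 ± 0.02. Foxa2, at 6.92 and 7.08, and Lmx1b, at 6.91 and 7.10, passed the 99th percentile on both arrays but failed the out-of-tissue threshold on replicate 1. Th was at 7.05 on both arrays, and the dopamine transporter gene Slc6a3 at 5.72 and 5.78. Slc18a2, Ddc, Pitx3 and En1 were not above background. Of 4 medial habenula markers, for cells that use Chrna3 and Chrnb4, Gpr151 at 5.00 and 5.21 and Pou4f1 at 4.75 and 5.39 were not above background, whereas Nwd2, at 8.61 ± 0.06, and Lrrc55 were. The Lrrc55 mean of 6.90 ± 0.05 averaged probe sets at 6.01 and 7.80, and at the out-of-tissue threshold only Nwd2 passed by its mean. Of 5 measured markers of cholinergic neurons, only Chat was above background, and Lhx8, at 4.92 and 5.29, and Isl1, at 5.34 and 5.49, were not. The shares above background were 50% for habenula and 20% for cholinergic markers, to be read against the same 60.3%.

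Markers of non-neuronal cells gave signal too. Above background were 8 of 8 astrocyte, 7 of 7 measured oligodendrocyte, 8 of 8 microglia and 7 of 8 endothelial and mural markers. Of these, 6, 5, 3 and 2 were also over the out-of-tissue threshold. The shares of all named genes were 60.3% above background and 38.2% over that threshold. Gfap was at 6.67 ± 0.02, Aqp4 at 6.93 ± 0.01 and Aldh1l1 at 7.40 ± 0.14 among astrocyte markers, and Mbp at 9.16 ± 0.04, Mog at 7.15 ± 0.03 and Mag at 8.17 ± 0.08 among oligodendrocyte markers. Gfap, Aqp4 and Aldh1l1 were the lowest astrocyte markers. That list had a median of 7.87 and reached 9.51 ± 0.04 in Slc1a2. Cx3cr1 was at 7.84 ± 0.11, Tmem119 at 6.58 ± 0.06 and P2ry12 at 6.71 ± 0.18 among microglia markers. Flt1 was at 7.16 ± 0.14, Pecam1 at 6.68 ± 0.11 and Tek at 6.15 ± 0.05 among vascular markers, and Ly6c1 was not above background at 4.37 ± 0.32. What part RNA of such cells has in the signal of Chrna4, Chrna7 or Chrnb2 was not tested.

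**Figure D4:**
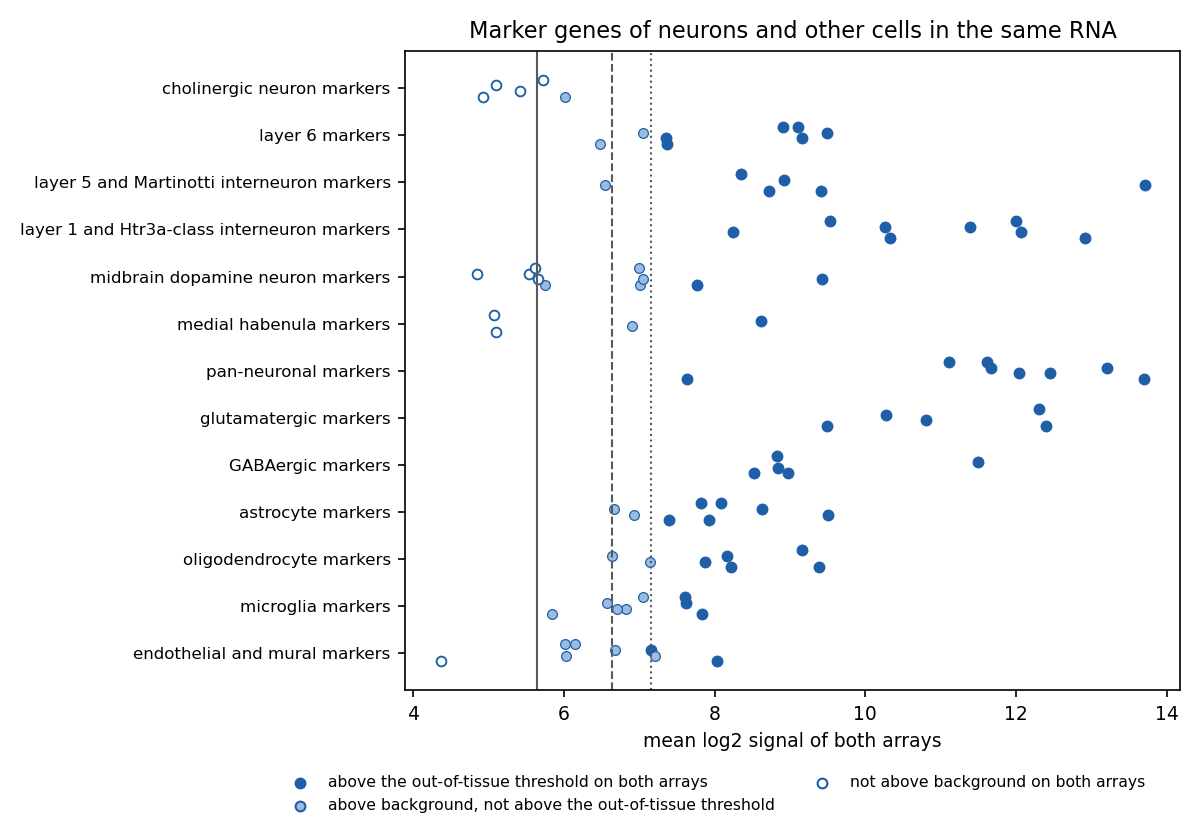
Mean log2 signal of both arrays (horizontal axis) for marker genes of neurons and other cells (1 row per list, points spread vertically for legibility). Filled points exceeded the out-of-tissue threshold on both arrays, pale points background only, and open points did not exceed background on both arrays. Vertical lines are the 95th (solid) and 99th (dashed) percentiles of sensory receptor genes and the out-of-tissue threshold (dotted), each averaged over the arrays. Layer 1 and Htr3a-class interneuron markers all lie right of the dotted line, and 4 of 5 cholinergic neuron markers are open.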

How the data were processed

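RNA from haemagglutinin-precipitated ribosomes was labelled with biotin and read on 2 arrays, per the labels' protocols. The deposited values are on what their range shows to be a log2 scale, 1 value per probe set and array. The sources used here do not give the background correction, summarisation, normalization, log base or genome build. Of 34472 probe sets, 23521 named 1 gene, 1814 named several and were not used, and 9137 are unnamed here. No probe set named a nicotinic member together with another gene, and the gene identifiers of all 9 members gave the same symbol in RefSeq (GRCm38.p6). The mean was taken where a gene had several probe sets, for 22180 named genes in all. Thresholds were computed with Python 3.11.15, pandas 2.3.3 and numpy 2.4.6. A trial on simulated data placed genes well above or below the background threshold, so it does not bear on members close to it. The number of arrays limits the precision, and no test between groups was possible with 1 group. Genes named were all members, all measured genes of the receptor-related lists, the first 3 measured genes of each marker list and list members whose call differed from that of most of their list, and the neighbours of each member. Sst, Ccn2, Aldh1a1, Nr4a2, Foxa2, Lmx1b, Slc1a2, Odf1, Acta1 and Apoa2, and the exceptions in lists split evenly, were chosen after their values were seen. The members and lists were chosen with earlier results of these data known. Some listed genes were not analysed here, and counts are over those that were. The alternatives were other thresholds, calls per probe set, the highest probe set of a gene, quantile normalization and each array alone.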

Additional observations from a re-analysis of the deposited data

How the results depend on the processing

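Under 8 other settings and under the out-of-tissue threshold without Odf1, which was chosen after seeing the data, some calls held and others did not. Chrna4, Chrna7 and Chrnb2 were above background under every setting and Chrna6, Chrnb3 and Chrnb4 under none. Chrna2 failed the out-of-tissue threshold alone, and passed it without Odf1. Chrna3 and Chrna5 failed that threshold with and without Odf1, the 99th percentile of sensory receptor genes and the median of all probe sets. The count of 6 members above background was 3 at the out-of-tissue threshold. It was 4 at that threshold without Odf1, at the 99th percentile or at the median of all probe sets. It was 6 under the other settings, which include each array alone (without replicate 1 or without replicate 2). This agreement was largely fixed in advance. A single array drops a condition, so it can only keep or add calls. Quantile normalization keeps the order of probe sets within an array. With 1 probe set per member, calls per probe set and by the highest probe set could change only the threshold. At the 99th percentile and at the out-of-tissue threshold, with or without Odf1, the count of muscle and cochlear subunits above background was 0 in place of 1, and that of acetylcholine-handling genes 1 in place of 4. Counts of the other receptor-related lists stayed within 1.5 times. The out-of-tissue threshold rests on 32 genes, 10 of which were themselves above background, and lies on replicate 1 between Apoa2, at 7.09, and Odf1, at 7.46, a mean of probe sets at 4.98 and 9.94. Each member has 1 probe set, so the highest probe set gives the same member signals, and quantile normalization moved no member mean by more than 0.005. No paired analysis was possible because there is 1 group. Signal over background limits what can be said of Chrna3, Chrna5 and the members under the threshold.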
